A study of Saccharomyces cerevisiae with 8 samples.

Results

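The change in mRNA level with loss of HEL2 was compared between yeast cells without and with modification of the wobble uridine U34 of tRNA. For each gene the comparison was the log2 fold change of ncs2∆elp6∆hel2∆ over ncs2∆elp6∆ minus that of hel2∆ over wild type, here called the interaction. An interaction of 0 means that the effects of the 2 losses multiplied. All 8 libraries of the series and all 6337 genes of the count table entered, and 6087 genes had enough counts to be tested.

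The strains were ncs2∆elp6∆hel2∆, ncs2∆elp6∆, hel2∆ and wild type of the MATa laboratory strain BY4741 of Saccharomyces cerevisiae, grown at 30 °C in YPD, a rich medium, with 2 libraries of poly(A) RNA from each. NCS2, ELP6 and HEL2 were each replaced by a selectable marker gene, and all 4 strains carry the auxotrophic deletions of their parent, except that the labels list met15Δ0 for wild type alone. Library totals lay between 13252947 and 23941037 counts. Levels below are CPM, read counts scaled to the library by edgeR's TMM factors and expressed per 1e+06, given for replicate 1 and then replicate 2 of a strain. They are relative to the library, so less RNA per cell and fewer transcripts of a gene cannot be told apart. The labels only number the replicates. The study calls the mRNA replicates of ncs2∆elp6∆hel2∆ and ncs2∆elp6∆ biological. For ncs2∆elp6∆ it counts more replicates than the 2 libraries used here. The p-values measure the spread between the libraries used here. HEL2 had 0 and 1 counts in ncs2∆elp6∆hel2∆ and 0 in both hel2∆ libraries, and NCS2 and ELP6 had at most 11 counts in each library that lacked them. Both replicates of ncs2∆elp6∆hel2∆ and ncs2∆elp6∆ had between 4321 and 6651 counts of MET17, a gene of sulfur assimilation also called MET15, against 0 to 6 in hel2∆ and wild type. Loss of U34 modification and presence of MET17 therefore cannot be told apart in any value below. STE2, the receptor specific to mating type a, had between 11388 and 18893 counts in every library, and STE3, its counterpart in type alpha, between 75 and 255.

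Ncs2 belongs to the pathway that puts sulfur on U34, and Elp6 is a subunit of Elongator, which starts the side chain of the same base. Both modifications speed the decoding of codons such as AAA, CAA and GAA, and without them ribosomes pause and some proteins aggregate. Hel2 is a ubiquitin ligase that recognises collided ribosomes and starts ribosome-associated quality control (RQC), in which the stalled ribosome is split and the unfinished protein degraded. Yeast answers misfolded protein through the heat shock factor Hsf1, which drives chaperone genes, and answers many stresses through Msn2 and Msn4, which bind the stress response element AGGGG. Phosphate genes are driven by another factor, Pho4, which binds CACGTG and CACGTT and is held back while phosphate is plentiful.

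Loss of HEL2 raised a set of chaperone and general stress transcripts in cells without U34 modification, whereas in cells with it the same transcripts were lower or not called. Among genes of phosphate uptake and polyphosphate synthesis, PHO84 and VTC3 showed the opposite order with a call in both backgrounds. Most others of that group also had an interaction below 0. Of the 6087 genes tested, 69 (1.13%) were called in the interaction, 59 as higher (0.969%) and 10 as lower (0.164%). A call is an adjusted p under 0.05 in the quasi-likelihood test of edgeR, with Benjamini-Hochberg adjustment over all genes tested. The interaction exceeded 1 in absolute size in 43 of the called genes (0.706% of those tested), 40 higher and 3 lower, and exceeded 2 in 17 of the higher genes. The observed level in ncs2∆elp6∆hel2∆ was between 1.45 and 19.0 times the product of the single changes in the 59 higher genes, with a median of 2.37. In the 10 lower genes it was between 0.222 and 0.651 times that product.

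**Figure D1:**
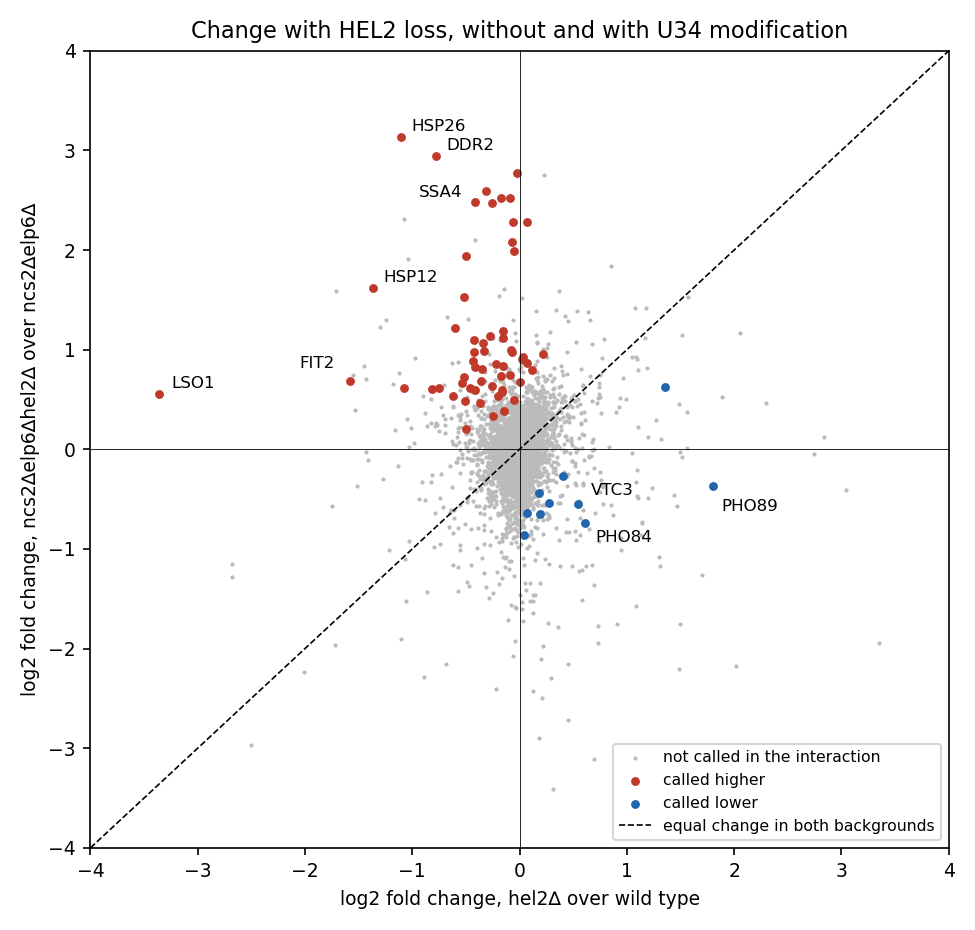
Log2 fold change of ncs2∆elp6∆hel2∆ over ncs2∆elp6∆ (vertical axis) against that of hel2∆ over wild type (horizontal axis), 1 point per gene tested. Red and blue points are the 59 genes called higher and the 10 called lower, grey points were not called, and the dashed line marks equal change. Deleted and marker genes and 4 genes beyond the axes, none of them called, are not drawn. All 59 red points lie above 0 on the vertical axis, at a median of 0.87. On the horizontal axis 53 of them lie left of 0, and the median of the 59 is -0.27.

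Pairing each library that lacks HEL2 with each that has it gives 4 differences in a background. In all 69 called genes the 4 differences of one background lay entirely above those of the other, against 1695 of all genes tested (27.8%). This separation comes from the same libraries and contrast as the calls, so it gives them no separate support. An unadjusted p under 0.05 was found for 877 genes. The called genes were mostly higher, but that split depended on the fit. DESeq2 called 97 genes higher and 56 lower, and leaving out hel2∆ replicate 1 gave 60 higher and 80 lower. Leaving out ncs2∆elp6∆ replicate 2 gave the lowest counts, 36 higher and 4 lower. There were 43 calls without ncs2∆elp6∆ replicate 1 and 42 without ncs2∆elp6∆hel2∆ replicate 1, and without wild type replicate 2 the lower calls numbered 38. In all 15 alternatives the 69 genes kept their sign wherever they were tested, and 35 of them, 31 higher and 4 lower, were called in every one. The other 34 calls were lost under at least 1 alternative, for 29 of them only when a library was left out.

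The calls in the separate backgrounds describe where the dependence lay, and they share libraries with the interaction. HEL2 loss was called for 422 genes (6.93%) without U34 modification and for 40 (0.657%) with it. The first count dropped to between 69 and 72 without either ncs2∆elp6∆ library or ncs2∆elp6∆hel2∆ replicate 1 and to 179 without ncs2∆elp6∆hel2∆ replicate 2. The second dropped to between 19 and 24 without any 1 library other than wild type replicate 1, and to 30 without that one. Of the 59 higher genes, 51 were called with HEL2 loss only without U34 modification. A further 5 were called in both backgrounds with opposite signs, namely HSP26, HSP12, FIT2, HXK1 and GAD1, which rose without U34 modification and fell with it. LSO1, TDH1 and GSY1 fell with HEL2 loss where U34 was modified and were not called where it was not. Over the 59 genes the median change with HEL2 loss was 0.87 without U34 modification and -0.27 with it, on the log2 scale. The estimate in hel2∆ against wild type was below 0 in 53. The genes were chosen by the difference between these changes, so these medians and signs follow in part from that choice. Over all genes tested the median interaction was 0.0025.

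The mean level in ncs2∆elp6∆hel2∆ exceeded that of every other strain in 48 of the 59 higher genes. The ratio to the next strain was between 1.09 and 8.78, with a median of 1.78. The other 11 were highest in wild type, and in these the triple mutant had between 19.7% and 99.9% of the wild-type level. Loss of U34 modification with HEL2 present was itself called higher for 18 of the 59 genes and lower for 20. Over all genes tested it was called higher for 906 (14.9%) and lower for 793 (13%). These counts share libraries with the interaction.

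Chaperones that hold or dissolve misfolded protein were called higher, and HSP26 had the largest interaction of all 69 called genes. Of the 6 genes tested on the list of small heat shock proteins, sequestrases and the disaggregase, 5 were called higher, with a list median of 1.78. Over all genes tested, 0.969% were called higher. HSP26, a small heat shock protein that binds misfolded proteins, had 627 and 556 CPM in ncs2∆elp6∆hel2∆, against 67.4 and 67.2 in ncs2∆elp6∆. In hel2∆ it had 22.6 and 21.7 CPM, against 42.7 and 53.1 in wild type. The 4 strains did not overlap, with the triple mutant far above the rest and hel2∆ the lowest. The product of the single changes would have placed the triple mutant at 31.1 CPM. The interaction was 4.24 ± 0.16 (SE; adjusted p 8.82e-07), from a rise of 3.13 ± 0.11 without U34 modification and -1.11 ± 0.12 with it (adjusted p 0.0018).

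HSP42, a small heat shock protein that gathers misfolded proteins into deposits, had 565 and 494 CPM in ncs2∆elp6∆hel2∆ and 93.5 and 97.0 in ncs2∆elp6∆. In hel2∆ it had 69.6 and 64.2 CPM, against 74.2 and 85.9 in wild type. Only the triple mutant stood well apart, and the interaction was 2.73 ± 0.14 (adjusted p 9.09e-06). BTN2, which sequesters misfolded proteins, had 686 and 583 CPM in ncs2∆elp6∆hel2∆ and 125 and 137 in ncs2∆elp6∆. Its levels of 53.9 and 45.9 CPM in hel2∆ overlapped with 53.7 and 40.7 in wild type, and the interaction was 2.21 ± 0.20 (adjusted p 0.000362). HSP31, a chaperone and glyoxalase, had an interaction of 1.35 ± 0.13, and HSP104, which pulls proteins out of aggregates, 1.27 ± 0.12. CUR1, a relative of BTN2, had -0.01 ± 0.15 and was not called.

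Inducible cytosolic Hsp70 genes were called higher, and the constitutive ones named here were not called. Of the 12 genes tested on the Hsp70 and Hsp110 list, 3 were called higher and none lower, with a list median of 0.14. The shares over all genes tested were 0.969% and 0.164%. SSA4, a stress-inducible Hsp70, had 816 and 838 CPM in ncs2∆elp6∆hel2∆, against 133 and 140.2 in ncs2∆elp6∆. The levels were 63.8 and 64.0 in hel2∆, against 79.4 and 79.9 in wild type. The replicates lay close together and the strains did not overlap. The interaction was 2.91 ± 0.10 (adjusted p 6.71e-07). SSA3, another inducible Hsp70, had 361 and 362 CPM in ncs2∆elp6∆hel2∆ and 91.5 and 79.6 in ncs2∆elp6∆. Its levels of 47.1 and 44.2 CPM in hel2∆ overlapped with 51.0 and 44.4 in wild type, and the interaction was 2.15 ± 0.14 (adjusted p 4.41e-05).

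SSE2, an Hsp110 that serves Hsp70 as exchange factor, had 213 and 206 CPM in ncs2∆elp6∆hel2∆ and 39.9 and 46.1 in ncs2∆elp6∆. In hel2∆ it had 66.6 and 60.2 CPM, against 66.8 and 65.3 in wild type. The ncs2∆elp6∆ libraries were the lowest, and the interaction was 2.34 ± 0.13 (adjusted p 1.42e-05). The constitutive SSA2 had an interaction of -0.11 ± 0.12, SSA1 of 0.39 ± 0.10, and the ribosome-bound Hsp70 genes SSB1 and SSB2 of 0.00 ± 0.14 and -0.04 ± 0.14. None of these was called.

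Elsewhere among the chaperones the called genes were few. HSP82, the inducible Hsp90, had an interaction of 0.89 ± 0.13 and was the only one called of 14 on the Hsp90 list, whose median was -0.01. APJ1, a J-domain protein, had 0.88 ± 0.14, the only one called of 11. The mitochondrial disaggregase gene HSP78 had 1.07 ± 0.11 and MDJ1, a mitochondrial J-domain protein, 0.54 ± 0.11, out of 12 mitochondrial chaperone genes. None of the 8 subunit genes of the chaperonin CCT (median -0.11) and none of 18 genes of folding in the endoplasmic reticulum (median -0.07) was called. Together 12 of 81 chaperone genes were called higher and none lower, at a median of 0.02. Over all genes tested, 0.969% were called higher and 0.164% lower. Of 21 core targets of Hsf1, 7 were called higher at a median of 0.18, and all 7 also stood on a chaperone list. The calls of HSP82, APJ1 and MDJ1 were each lost when at least 1 of the ncs2∆elp6∆ libraries was left out, with adjusted p up to 0.0645, 0.0802 and 0.226.

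**Figure D2:**
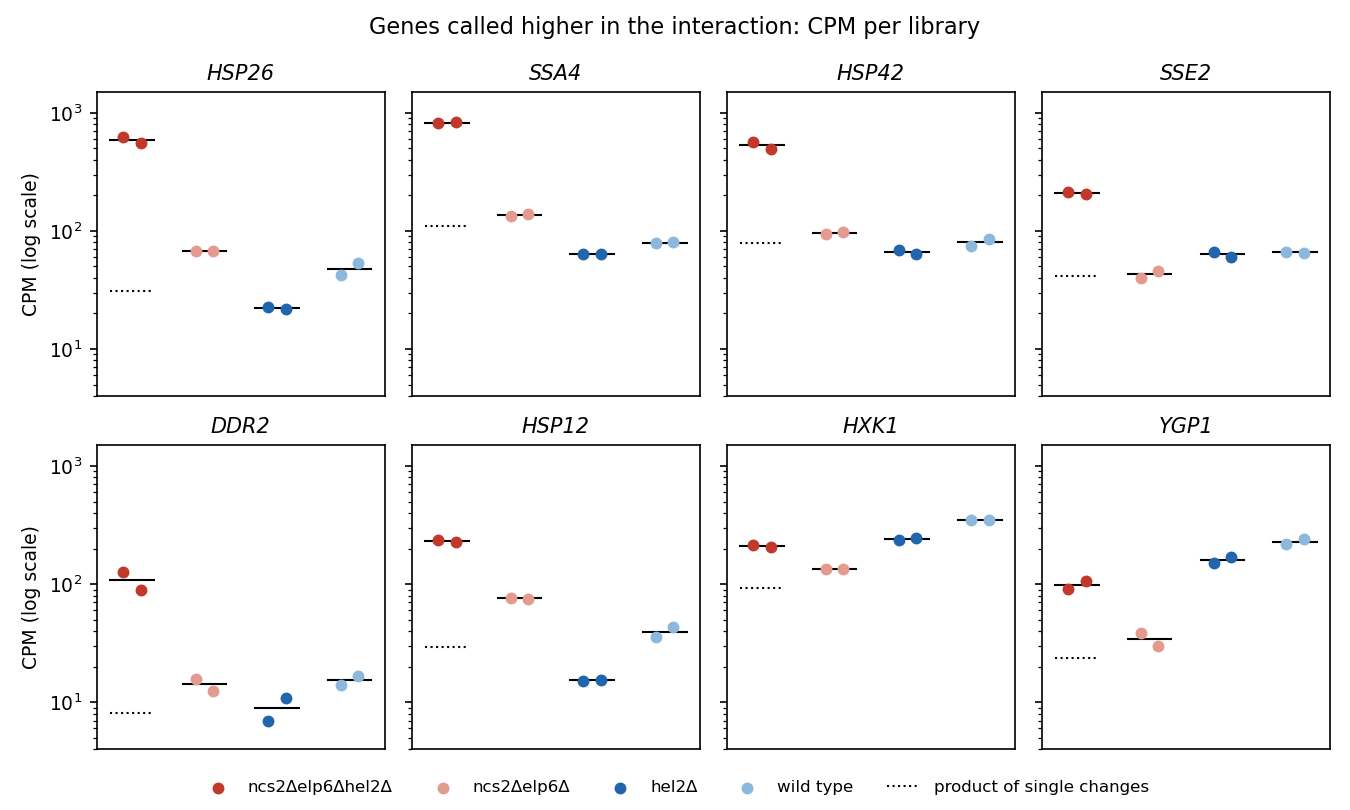
CPM on a log axis of 8 genes called higher in the interaction, with 1 point per library, a bar at the mean of the 2 libraries and, for the triple mutant, a dotted line at the product of the single changes. Strains run from ncs2∆elp6∆hel2∆ at the left to wild type at the right. HSP26 stands at 627 and 556 CPM in the triple mutant against a dotted line at 31.1, while HXK1 and YGP1 are highest in wild type.

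Promoter stretches of HSP26, SSA4, HSP42 and DDR2 are shown because these genes had some of the largest interactions and their upstream DNA carries the letters that Msn2, Msn4 and Hsf1 are known to bind. Each is written 5′ to 3′ toward the gene and lies within 600 bases before the start codon. Capitals mark AGGGG, or CCCCT where it lies on the other strand, and the heat shock motifs TTCNNGAA and GAANNTTC, which overlap each other in HSP42. The sequences are from the RefSeq genome, build R64.
HSP26 (chrII:381531-381728, forward strand): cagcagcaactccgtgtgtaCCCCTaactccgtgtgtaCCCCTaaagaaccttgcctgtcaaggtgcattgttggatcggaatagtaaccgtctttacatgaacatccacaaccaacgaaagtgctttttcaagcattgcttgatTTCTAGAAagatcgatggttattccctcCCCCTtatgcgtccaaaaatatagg
SSA4 (chrV:364119-364417, forward strand): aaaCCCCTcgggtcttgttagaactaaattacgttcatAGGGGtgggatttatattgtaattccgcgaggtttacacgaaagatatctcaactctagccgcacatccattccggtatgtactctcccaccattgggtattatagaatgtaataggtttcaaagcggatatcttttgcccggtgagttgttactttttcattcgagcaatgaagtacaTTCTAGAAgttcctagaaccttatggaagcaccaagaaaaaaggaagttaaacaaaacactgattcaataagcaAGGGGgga
HSP42 (chrIV:806358-806463, forward strand): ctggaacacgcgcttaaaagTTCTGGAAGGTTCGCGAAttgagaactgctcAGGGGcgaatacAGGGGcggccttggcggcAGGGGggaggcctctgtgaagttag
DDR2 (chrXV:231906-232023, reverse strand): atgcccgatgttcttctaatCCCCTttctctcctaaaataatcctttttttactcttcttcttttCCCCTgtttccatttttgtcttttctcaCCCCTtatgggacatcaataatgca
The window of HSP26 held 3 stress response elements and 1 heat shock motif, as did that of SSA4. HSP42 had 3 elements and 3 heat shock motifs. DDR2 had 3 elements in the stretch shown and, farther upstream, 1 more and 1 heat shock motif. The window of 600 bases was added after the counts were seen. From 250 bases before to 50 bases after the start of translation, HSP26 had 0 of these motifs. SSA4 had 1 element and 0 heat shock motifs there. Other called genes with large interactions, LSO1 (3.91), OYE3 (2.69), SSA3 (2.15) and HSP30 (2.04), had 0 of these motifs in the 600 bases.

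The general stress list gathered genes induced by many stresses, many of them known targets of Msn2 and Msn4, outside the chaperone lists above. It was written with earlier results of these data known, so its counts are a description and no test. Of its 40 genes tested, 19 were called higher in the interaction and none lower, against 0.969% and 0.164% of all genes tested. The interaction was above 0 in all 40, against 3078 of all 6087 genes tested, and its median was 0.96. HEL2 loss was called for 27 of the 40 without U34 modification and for 2 with it, against 6.93% and 0.657% of all genes tested. The median change was 0.67 without U34 modification and -0.28 with it. The estimate without U34 modification was above 0 in 38 and that with it below 0 in 38, so most of the genes lay on opposite sides of 0 in the 2 backgrounds.

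HSP12, which protects membranes under stress, had 238 and 227 CPM in ncs2∆elp6∆hel2∆, against 76.8 and 75.2 in ncs2∆elp6∆. The levels were 15.0 and 15.6 in hel2∆, against 35.9 and 43.1 in wild type. Loss of HEL2 raised it without U34 modification and lowered it with it, and the strains did not overlap. The interaction was 2.98 ± 0.14 (adjusted p 4.58e-06), from 1.62 ± 0.09 and -1.36 ± 0.10. DDR2, a gene induced by many stresses, had 128 and 89.0 CPM in ncs2∆elp6∆hel2∆ and 15.8 and 12.6 in ncs2∆elp6∆. In hel2∆ it had 6.92 and 10.8 CPM, against 14 and 16.8 in wild type. The triple mutant replicates lay further apart than those of HSP12, yet far above every other library, and the interaction was 3.72 ± 0.34 (adjusted p 0.000373).

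YJL144W, a hydrophilin, had 91.1 and 98.1 CPM in ncs2∆elp6∆hel2∆ and 17.1 and 16.0 in ncs2∆elp6∆. Its levels of 5.67 and 6.43 CPM in hel2∆ overlapped with 6.78 and 6.06 in wild type, so the dependence lay in the background without U34 modification. The interaction was 2.61 ± 0.18 (adjusted p 6.26e-05). TMA10 showed the same order, with 98.5 and 76.2 CPM in ncs2∆elp6∆hel2∆, against 11.4 and 14 in ncs2∆elp6∆, while hel2∆ had 8.84 and 8.16, against 8.66 and 8.62 in wild type. Its interaction was 2.80 ± 0.23 (adjusted p 0.000233). RTC3 had an interaction of 2.90 ± 0.30, SPI1, a cell wall protein, 2.45 ± 0.20, and HSP30, a plasma membrane protein, 2.04 ± 0.20.

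The other called genes of the list had interactions between 0.89 and 2.04. They included CTT1, the cytosolic catalase (1.41 ± 0.13), XBP1, a repressor of transcription (1.41 ± 0.22), GAD1, glutamate decarboxylase (1.16 ± 0.15), and PNC1, nicotinamidase (0.89 ± 0.09). YGP1, a secreted glycoprotein, differed in where its highest level lay. It had 90.8 and 106 CPM in ncs2∆elp6∆hel2∆ and 38.6 and 29.8 in ncs2∆elp6∆, against 152 and 169 in hel2∆ and 219 and 239.8 in wild type. HEL2 loss raised YGP1 without U34 modification, but the triple mutant stayed below both strains with it (interaction 2.04 ± 0.18, adjusted p 0.000362). Of the 19 calls, those of XBP1, SOL4, TFS1, DCS2, GOR1 and RTN2 were lost when at least 1 library was left out, with adjusted p up to 0.204 for GOR1.

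Carbon and reserve metabolism held a few called genes, among them several that were highest in wild type. The share called higher over all genes tested was 0.969%. HXK1, a hexokinase used on poor carbon sources, had 216 and 206 CPM in ncs2∆elp6∆hel2∆ and 134 and 133 in ncs2∆elp6∆. In hel2∆ it had 236 and 246 CPM, against 353 and 347 in wild type. HEL2 loss thus lowered HXK1 with U34 modification and raised it without, and the interaction was 1.20 ± 0.10 (adjusted p 0.000213). TDH1, a glyceraldehyde-3-phosphate dehydrogenase, had 26.4 and 32.1 CPM in ncs2∆elp6∆hel2∆, against 22.3 and 16.1 in ncs2∆elp6∆. The levels were 51.9 and 63.7 in hel2∆, against 100.4 and 144 in wild type. Its interaction was 1.69 ± 0.29 (adjusted p 0.0221), from 0.62 ± 0.21 without U34 modification and -1.08 ± 0.19 with it, and the call was lost without replicate 2 of ncs2∆elp6∆ or of ncs2∆elp6∆hel2∆ (adjusted p up to 0.119). GPP2, which makes glycerol, was the third of 29 genes of glycolysis and fermentation to be called, at 0.74 ± 0.11, and its call was lost without ncs2∆elp6∆ replicate 1 (adjusted p 0.0516).

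Of 21 genes of trehalose and glycogen metabolism 3 were called higher, at a median of 0.22, against 0.969% of all genes tested. They were TSL1, a subunit of trehalose synthase (1.01 ± 0.15), GSY1, glycogen synthase (0.70 ± 0.13), and TPS2, trehalose-phosphatase (0.58 ± 0.10). GSY1 had 39.1 and 35.6 CPM in ncs2∆elp6∆hel2∆ and 32.7 and 32.4 in ncs2∆elp6∆, against 52.3 and 52.0 in hel2∆ and 70.9 and 76.8 in wild type. HEL2 loss lowered it with U34 modification and was not called without. COX5B, the hypoxic form of a cytochrome oxidase subunit, was the only one called of 39 respiratory chain genes (1.08 ± 0.14). All 3 calls of the trehalose and glycogen list were lost when at least 1 library was left out, with adjusted p up to 0.1404.

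Iron and redox genes gave single large values. FIT2, a cell wall protein that retains iron-siderophores, had 204 and 248 CPM in ncs2∆elp6∆hel2∆, against 146 and 134 in ncs2∆elp6∆. The levels were 45.0 and 60.7 in hel2∆, against 179 and 137 in wild type. It was low only in hel2∆, and the interaction was 2.27 ± 0.23 (adjusted p 0.000808), with -1.58 ± 0.17 in hel2∆ against wild type. FIT3, of the same family, had 2.30 ± 0.46 and was not called. LSO1, a gene induced by iron loss, had 76 and 67 counts in ncs2∆elp6∆hel2∆, against 24 and 56 in ncs2∆elp6∆. There were 1 and 8 in hel2∆, against 43 and 31 in wild type. Its interaction was 3.91 ± 0.74 (adjusted p 0.0408), from 0.55 ± 0.41 without U34 modification and -3.36 ± 0.60 with it, and the call was lost in 7 of 14 alternatives (adjusted p up to 0.142). These were the 2 called of 24 iron uptake genes, whose median was 0.29, against 0.969% of all genes tested called higher.

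OYE3, an NADPH oxidoreductase, had 45.4 and 38.6 CPM in ncs2∆elp6∆hel2∆ and 8.17 and 6.57 in ncs2∆elp6∆. Its levels of 9.05 and 6.62 CPM in hel2∆ overlapped with 7.77 and 10.02 in wild type, and the interaction was 2.69 ± 0.29 (adjusted p 0.00113). It was the only one called of 26 genes of oxidative defence, against 0.969% of all genes tested called higher. DAP1, a heme-binding protein gene next to OYE3 on chromosome XVI, was called as well, at 0.68 ± 0.12. RPN4, the activator of proteasome genes, had 316 and 318 CPM in ncs2∆elp6∆hel2∆ and 168 and 196 in ncs2∆elp6∆, against 129 and 126 in hel2∆ and 125 and 111 in wild type. Its interaction was 0.69 ± 0.13 (adjusted p 0.0408), and none of the 32 other genes of the proteasome list was called. UBI4, the stress-induced polyubiquitin gene, had 0.75 ± 0.14. GCV1, of the glycine cleavage complex, had 0.73 ± 0.11, the only one called of 17 purine and one-carbon genes, and its call was lost without ncs2∆elp6∆ replicate 2 or ncs2∆elp6∆hel2∆ replicate 1 (adjusted p up to 0.0809). The calls of RPN4, UBI4 and DAP1 were each lost without ncs2∆elp6∆ replicate 1, with adjusted p up to 0.144, 0.156 and 0.1404 over the alternatives.

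Apart from the lists of the study, no list held 15 of the 59 higher genes. The largest interactions among them were those of TPO2, a polyamine exporter (1.82 ± 0.20), YPC1, a ceramidase (1.53 ± 0.17), ECM4, a glutathione transferase (1.42 ± 0.22), and YRO2, a membrane protein (1.40 ± 0.16). TPO2 has a near-identical copy, TPO3, and how reads shared by them were counted is not given in the sources used here. WSC4, a cell wall sensor, had 12.7 and 15.2 CPM in ncs2∆elp6∆hel2∆ and 9.25 and 8.99 in ncs2∆elp6∆, against 49.3 and 53.2 in hel2∆ and 63.8 and 77.4 in wild type. It kept the order of YGP1 and YRO2, low in both strains without U34 modification and highest in wild type (interaction 1.07 ± 0.19, adjusted p 0.0277). The calls of ECM4 and WSC4 were each lost without either ncs2∆elp6∆ library, with adjusted p up to 0.0779 and 0.147.

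The 10 genes called lower were led by phosphate genes. Of 16 tested targets of Pho4, 5 were called lower in the interaction and 1, PHM8, higher, against 0.164% and 0.969% of all genes tested. The interaction was below 0 in the other 15, and the list median was -0.63. Over all 6087 genes tested it was above 0 in 3078. The median change with HEL2 loss was -0.32 without U34 modification and 0.38 with it. HEL2 loss was called for 4 of the 16 without U34 modification, PHM8 with a rise among them, and for 3 with it. Over all genes tested these shares were 6.93% and 0.657%. Loss of U34 modification with HEL2 present was called lower for 9 of the 16 and higher for none, against 13% and 14.9% of all genes tested.

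Stretches before PHO84, VTC3 and VTC4 are shown, since all 3 were called lower and hold the motif CACGTG more than once. Capitals mark CACGTG and CACGTT, the second read as AACGTG on the other strand. Build and direction are as above.
PHO84 (chrXIII:26037-26256, reverse strand): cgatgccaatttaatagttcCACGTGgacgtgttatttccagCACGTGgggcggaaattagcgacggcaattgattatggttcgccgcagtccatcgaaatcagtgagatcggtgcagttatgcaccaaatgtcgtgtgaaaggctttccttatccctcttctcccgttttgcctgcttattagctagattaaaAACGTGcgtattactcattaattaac
VTC3 (chrXVI:517271-517383, reverse strand): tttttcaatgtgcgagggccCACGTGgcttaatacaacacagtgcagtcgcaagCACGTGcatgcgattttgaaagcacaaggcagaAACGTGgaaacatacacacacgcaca
VTC4 (chrX:413500-413544, reverse strand): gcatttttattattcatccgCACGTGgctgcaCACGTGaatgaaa
From 250 bases before to 50 bases after the start of translation, CACGTG was present in 1 of the 5 targets called lower, in 4 of the 16 tested targets and in 168 of 5648 genes (3.0%). In the 600 bases before the start codon, a window added after the counts were seen, it was present in all 5, in 15 of the 16 and in 412 genes (7.3%). The genes were listed as targets of Pho4, so these shares are part of their choice.

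PHO84, the high-affinity phosphate transporter, had 117 and 107 CPM in ncs2∆elp6∆hel2∆, against 192 and 182 in ncs2∆elp6∆. The levels were 834 and 851 in hel2∆, against 539.7 and 566 in wild type. The strains did not overlap: HEL2 loss raised it with U34 modification and lowered it without. The interaction was -1.35 ± 0.11 (adjusted p 0.000198), from -0.74 ± 0.08 and 0.61 ± 0.07. An antisense RNA is annotated across PHO84, and strand in counting is not given in the sources used here.

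VTC3, a subunit of the polyphosphate polymerase of the vacuole, showed the same order as PHO84. It had 91.4 and 86.7 CPM in ncs2∆elp6∆hel2∆ and 124 and 136 in ncs2∆elp6∆, against 414 and 423 in hel2∆ and 284 and 291 in wild type (interaction -1.09 ± 0.11, adjusted p 0.000591). PHO89, a sodium-phosphate symporter, had 5.58 and 5.92 CPM in ncs2∆elp6∆hel2∆, against 7.45 and 7.39 in ncs2∆elp6∆. The levels were 23.9 and 25.4 in hel2∆, against 7.46 and 6.60 in wild type. Only hel2∆ was high, and PHO89 was called with HEL2 loss only where U34 was modified (interaction -2.17 ± 0.22, adjusted p 0.000821).

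VTC4, the catalytic subunit of the same polymerase, had an interaction of -0.67 ± 0.13 (adjusted p 0.0408) without a call in either background. PHO81, which inhibits the kinase that holds Pho4 back, had -0.82 ± 0.15 (adjusted p 0.038). Both calls were lost when either ncs2∆elp6∆ library was left out, with adjusted p up to 0.234 and 0.216. SPL2, which tunes low-affinity uptake, had -1.33 ± 0.26 and was not called (adjusted p 0.0525). PHM8, a phosphatase also induced by other stresses, went the other way at 1.32 ± 0.21, with 51.3 and 43.3 CPM in ncs2∆elp6∆hel2∆ and 23.3 and 27.8 in ncs2∆elp6∆. In hel2∆ it had 24.2 and 26.9 CPM, against 30.3 and 38.9 in wild type, and its call was lost without replicate 1 of ncs2∆elp6∆ or of ncs2∆elp6∆hel2∆ (adjusted p up to 0.0779).

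**Figure D3:**
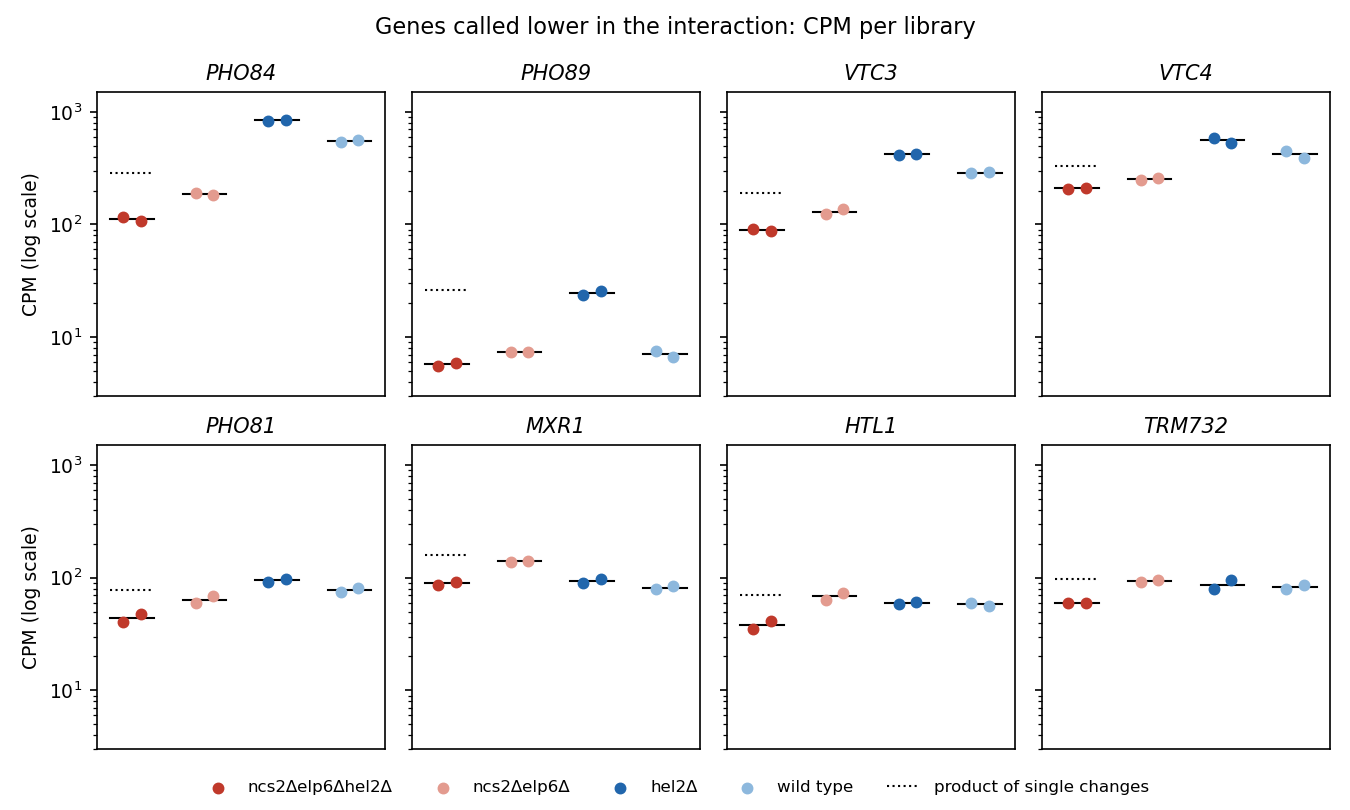
CPM on a log axis of 8 of the 10 genes called lower in the interaction, drawn as in the plot of higher genes: 1 point per library, a bar at the mean of the 2 libraries, and a dotted line at the product of the single changes. PHO84 and VTC3 are high in hel2∆ and lowest in the triple mutant, while MXR1 is high only in ncs2∆elp6∆.

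Among the genes called lower, 4 belonged to no list other than those of the study. MXR1, a methionine sulfoxide reductase, had 86.0 and 92.1 CPM in ncs2∆elp6∆hel2∆ and 138 and 141 in ncs2∆elp6∆. Its levels of 89.4 and 96.6 CPM in hel2∆ did not overlap with 78.7 and 84.8 in wild type, and ncs2∆elp6∆ was well above all other strains (interaction -0.84 ± 0.11, adjusted p 0.00562). HTL1, a subunit of the chromatin remodeller RSC, had -0.89 ± 0.15, TRM732, a partner in tRNA methylation, -0.71 ± 0.13, and SAC3, of mRNA export, -0.62 ± 0.10. HTL1 lies next to HSP30, which was called higher, on chromosome III. All 4 calls were lost without ncs2∆elp6∆ replicate 2, with adjusted p over the alternatives up to 0.0502 for MXR1 and between 0.142 and 0.219 for the other genes.

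Many gene groups held no called gene, against 1.13% of all genes tested, a share at which small groups often hold none. These were the 135 cytosolic ribosomal protein genes (median interaction 0.06), the 55 mitochondrial ones (0.12), 53 of ribosome biogenesis (-0.05), 25 factors of ribosome collision and rescue (-0.06), 18 genes of the U34 pathway (0.03), 30 Gcn4 targets on the list of amino acid synthesis (-0.08) and 25 of sulfate and methionine (-0.10). The 8 tested targets of Leu3, which drives leucine synthesis, all had an interaction below 0, at a median of -0.24, but none was called. Their median change with HEL2 loss was -0.93 without U34 modification and -0.79 with it.

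Membership of 4 gene lists was taken from the supplement of the study. Its lists of RQC targets and of transcripts refractory to RQC rest on footprints of collided ribosomes from strains compared here, so they are not independent of these data, and the lists of aggregating proteins on earlier proteomics. The sizes of the first pair are exchanged in 1 sentence of the study relative to its figure legend and the labels of the supplement, and the labels were used. For comparison with the counts below, 0.969% of all genes tested were called higher and 0.164% lower. Of 137 genes labelled RQC targets, 2 were called higher, HSP31 and FIT2, at a list median of 0.05. Of 188 genes labelled refractory, YLR194C was called higher and 1 gene lower, at -0.01. Of 596 genes of aggregation-prone proteins, GAD1, YPK2 and TPS2 were called higher and 2 genes lower, TRM732 among them, at -0.04. Of 381 genes of non-aggregating proteins, COX5B was called higher and PHO84, VTC3 and VTC4 lower, at 0.04.

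**Figure D4:**
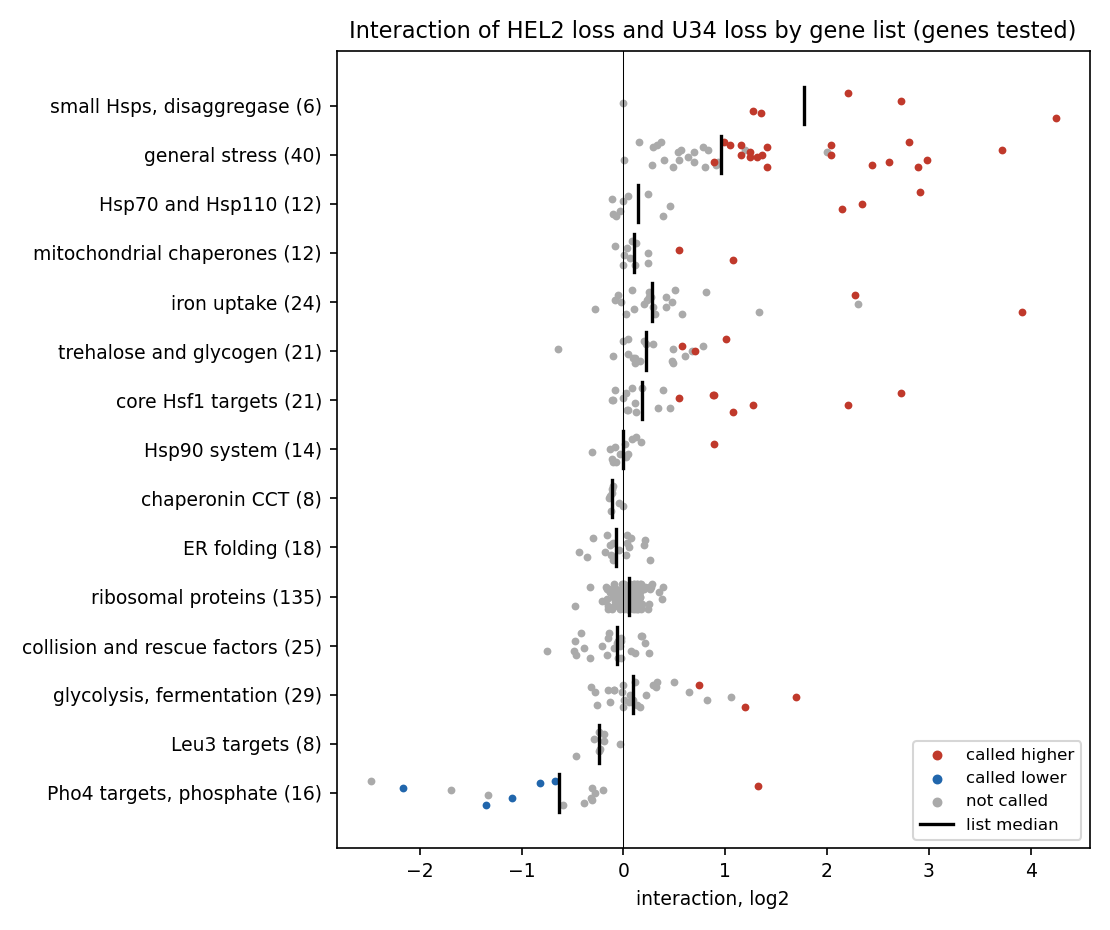
Interaction on the log2 scale of each gene tested in 15 lists, with the number of genes in parentheses. Red and blue points were called higher and lower, grey points were not called, and the black bar is the list median. The bar lies at 1.78 for the list of small heat shock proteins, sequestrases and the disaggregase. It lies at 0.96 for general stress, at -0.63 for targets of Pho4 and near 0 for ribosomal proteins.

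Of 19 regulator transcripts tested, only RPN4, described above, was called, at a list median of 0.02. MSN4 had 157 and 140.2 CPM in ncs2∆elp6∆hel2∆ and 108 and 112 in ncs2∆elp6∆, against 77.0 and 69.0 in hel2∆ and 75.6 and 83.1 in wild type. Its interaction of 0.55 ± 0.13 was not called (adjusted p 0.104), whereas DESeq2 called it (adjusted p 0.0217). The interaction was 0.04 ± 0.10 for GCN4, -0.01 ± 0.15 for LEU3, -0.07 ± 0.11 for MSN2, -0.10 ± 0.13 for HSF1 and -0.17 ± 0.24 for PHO4.

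Promoter letters were counted in the window from 250 bases before to 50 bases after the start of translation, on both strands, for 5648 of the genes tested, all 69 called genes included. AGGGG was present in 31 of the 59 higher genes (52.5%), in 1 of the 10 lower genes and in 1233 of all genes (21.8%). A pair of copies or more was present in 13 higher genes (22%) and in 168 of all genes (3.0%). TTCNNGAA or GAANNTTC was present in 17 higher genes (28.8%) and in 1302 of all genes (23.1%), and among the 12 higher chaperone genes in 6. CACGTG or CACGTT was present in 6 higher genes (10.2%), 3 lower genes and 671 of all genes (11.9%). TGACTC, the letters bound by Gcn4, was present in 4 higher genes (6.8%), none of the lower genes and 462 of all genes (8.2%).

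A longer window of 600 bases before the start codon, added after the counts were seen, held AGGGG in 48 higher genes (81.4%) against 2264 of all genes (40.1%). It held either heat shock motif in 33 higher genes (55.9%) against 2337 of all genes (41.4%), and in 10 of the 12 higher chaperone genes. CACGTG or CACGTT was present there in 6 of the 10 lower genes against 1390 of all genes (24.6%). The general stress genes were listed partly because Msn2 and Msn4 are known to drive them, so their share is part of their choice. These matches are a description of letters and not of binding.

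Codons read by the tRNAs that carry U34 modification were counted in the coding sequences. The median share of AAA was 3.08% of codons in the 59 higher genes, 4.54% in the 10 lower genes and 4.11% in all genes with a coding sequence. For CAA the shares were 2.37%, 2.70% and 2.54%, and for GAA 4.25%, 4.95% and 4.35%, in the same order. The quartiles over all genes were 2.95% and 5.28% for AAA, and the medians of both called groups lay between them. The slow codon pairs counted here were CGA followed by AAA or CAA and GCA followed by CAA. At least 1 of them was present in 10 higher genes (16.9%), 5 lower genes and 1400 of all genes (24.8%). GCA followed by AAA, which the study also names as a stalling pair, was not counted. The coding sequences differed in length, with medians of 370.0, 778.0 and 405.0 codons. No test was run on these shares.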

How the data were processed

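The authors deposited 1 table of read counts per gene for 8 poly(A) RNA libraries made with a stranded kit. Per their methods, reads were mapped to coding sequences without adaptor trimming. The submitters' processing notes name Bowtie and sacCer3. The counting program, its use of strand and its treatment of shared reads are not given in the sources used here. Library totals ran from 13252947 to 23941037 counts. The intervals and p-values carry counting error and the spread between 2 libraries.

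Genes kept by filterByExpr were scaled by TMM and fitted with 1 mean per strain over all 8 libraries in edgeR 4.0.16 (R 4.3.3, quasi-likelihood test, two-sided, Benjamini-Hochberg adjustment over 6087 genes). The study fitted all strains with DESeq2, which served here as an alternative (version 1.42.0). Each SE was taken from the log2 change and its F statistic. An exact permutation test of 2 against 2 libraries cannot go below p = 0.333, so none was used. The fit was tested on data made with known changes. The other alternatives were RLE factors, library totals, no filter, a mean of at least 50 counts in every strain, a replicate block and leaving out each library.

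Genes were named by rule: the 12 largest and up to 10 lowest called interactions, up to 4 called genes of each list, classes of 5 or fewer and 6 regulators. Others were chosen after their values were seen, among them all calls given for general stress and unlisted genes and the genes named as not called. The members and lists were chosen with earlier results of these data known. Promoter and coding sequences were read from the RefSeq genome R64, the same assembly as sacCer3. Of the 6087 genes tested, 5649 matched its annotation. The promoter table named in the plan was not used here, and the start codon stood for the gene start. The selectable marker genes were not analysed here, and 1 gene called lower is not reported here.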

Additional observations from a re-analysis of the deposited data

Results flagged for a closer look

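The genes named by rule whose change with HEL2 loss differed between the 2 backgrounds by the test of the interaction itself are given here with that interaction on the log2 scale. It was above 2 for HSP26 (4.24), LSO1 (3.91), DDR2 (3.72), HSP12 (2.98), SSA4 (2.91), RTC3 (2.90), TMA10 (2.80), HSP42 (2.73), OYE3 (2.69), YJL144W (2.61), SPI1 (2.45), SSE2 (2.34), FIT2 (2.27), BTN2 (2.21) and SSA3 (2.15). It lay between 1 and 2 for TDH1 (1.69), HSP31 (1.35), PHM8 (1.32), HSP104 (1.27), HXK1 (1.20), COX5B (1.08), HSP78 (1.07) and TSL1 (1.01). It was positive and below 1 for HSP82 (0.89), APJ1 (0.88), GPP2 (0.74), GCV1 (0.73), GSY1 (0.70), RPN4 (0.69), TPS2 (0.58) and MDJ1 (0.54). It was negative for SAC3 (-0.62), VTC4 (-0.67), TRM732 (-0.71), PHO81 (-0.82), MXR1 (-0.84), HTL1 (-0.89), VTC3 (-1.09), PHO84 (-1.35) and PHO89 (-2.17). With 2 libraries in each strain, no strain could be examined for a single library far from the others.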

How the results depend on the processing

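No called interaction of a named gene changed sign under any alternative. For named genes that were not called, a change of sign without a call was not counted. Of the values of named genes under the alternatives, 609 stayed on their side of the threshold, 78 lost the call and 2 gained it, both of MSN4. The 69 calls became 153 with DESeq2 (97 higher, 56 lower, 67 over 1 in absolute size), 119 with a replicate block (51 lower) and 322 with crossed replicate numbers as the block (160 higher, 162 lower, 79 over 1). All 69 calls were kept under these 3 fits. HEL2 loss without U34 modification called 422 genes, which became 653 with DESeq2, 663 with the replicate block, 1265 with the crossed block and 869 when only its own 4 libraries were fitted. With U34 modification the 40 calls became 63 with DESeq2, 79 with the crossed block and 17 with 4 libraries. Leaving out each library in turn gave 40 to 140 calls in the interaction, 36 to 60 higher, 4 to 80 lower and 33 to 72 over 1, then 69 to 587 calls without U34 modification and 19 to 30 with it. The highest counts for the interaction came without hel2∆ replicate 1, and the lowest without ncs2∆elp6∆ replicate 2. A lone library is there assumed to vary like the other strains. The share of calls that were higher was 63.4% with DESeq2, 57.1% with the replicate block, 49.7% with the crossed block, 42.9% without hel2∆ replicate 1 and 57.3% without wild type replicate 2. The cause of these shifts was not tested. Deviations of same-numbered libraries correlated at 0.476 between hel2∆ and wild type and between -0.209 and 0.12 for the other pairs of strains. No label says that a number marks a shared batch, so the numbers were not taken to pair libraries. The crossed block was chosen after seeing the data. The median over all genes moved to at most 0.04, without ncs2∆elp6∆ replicate 1. Of the list medians, 246 moved by less than the spread and 9 by more. With no filter on low counts the list of small heat shock proteins, sequestrases and the disaggregase had 1.31.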
